A study of Mus musculus with 14 samples.

Results

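The miR-322, miR-351 and miR-450 cluster of the mouse X chromosome was followed along the epididymis, through its mature products miR-322-5p, miR-322-3p, miR-351-5p, miR-450a-5p and miR-450b-5p. These 5 miRNAs were chosen as products of this cluster that are listed in both count tables, and the group was selected on measured values, the log2 changes from caput to cauda in whole tissue and in epithelial cells. They were 5 of 900 miRNAs listed for whole tissue and 5 of 677 listed for epithelial cells. A miRNA was taken as identified where its mean count was above 10 in at least 1 region. In whole tissue all 5 products passed, among 360 miRNAs, although miR-450b-5p passed through the caput only. In epithelial cells 3 of 5 passed, among 216 miRNAs, and miR-322-3p and miR-450b-5p did not.

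Small RNA had been sequenced from the caput (head), corpus (body) and cauda (tail) of the epididymis of male Swiss mice aged 8 weeks, with no treatment that differed between groups. All mice had their vessels perfused with buffered saline before dissection, and each replicate was a pool of several mice. Whole tissue, which keeps muscle, stroma, vessels and luminal sperm, gave 3 caput, 2 corpus and 3 cauda libraries. Epithelial cells gave 2 libraries per region, from tissue that had been flushed of sperm and digested with trypsin and collagenase, after which the cells that did not attach to a culture plate were collected. The methods of the study state 2 replicates per region and sequencing in triplicate, so the spread between libraries may be partly technical, and p-values then measure only that spread.

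The epididymis is the duct in which sperm mature and are stored, and its epithelium changes along its length in what it secretes and absorbs. A miRNA is cut from a hairpin precursor, whose arms can each give a mature strand (5p and 3p), and it lowers the output of mRNAs that pair with its seed, bases 2 to 8 counted from the 5′ end. Clustered hairpins are often transcribed together as parts of a longer RNA and can still differ in the level of their mature products. miR-322 and its neighbour miR-503 belong to the extended miR-15/16 group and are known as brakes on cell cycle genes and as part of muscle differentiation, while miR-351 shares its seed with the miR-125 family.

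The mature sequences were taken from RefSeq (GRCm38.p6, the same assembly as the mm10 build of the study). The 5 products are shown because their seeds place them in different families, and miR-503-5p, miR-16-5p and miR-125a-5p are shown as the relatives with which they are compared. Capitals mark the seed.
miR-322-5p: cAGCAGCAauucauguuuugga
miR-322-3p: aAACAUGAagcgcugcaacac
miR-351-5p: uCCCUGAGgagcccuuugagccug
miR-450a-5p: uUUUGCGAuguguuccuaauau
miR-450b-5p: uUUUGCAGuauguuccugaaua
miR-503-5p: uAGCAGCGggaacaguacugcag
miR-16-5p: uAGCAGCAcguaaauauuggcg
miR-125a-5p: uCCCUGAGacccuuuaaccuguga
The sequences were compared position by position from the 5′ end without gaps, so stretches shared at shifted positions are not counted. On this basis miR-322-5p had all 7 seed bases in common with miR-16-5p and 12 of 22 positions over its whole length. It shared 6 of 7 seed bases with its neighbour miR-503-5p, with the difference A8G (the base of miR-322-5p, the position from the 5′ end, then the base of miR-503-5p). miR-351-5p shared its first 8 bases with miR-125a-5p and 10 of 24 positions in all, which without gaps does not measure their likeness beyond the seed. miR-450a-5p and miR-450b-5p were identical at 15 of 22 positions and at 5 of 7 seed positions, the seed differences being G7A and A8G from miR-450a-5p to miR-450b-5p, so that these neighbours carry different seeds.

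All of these hairpins lie on the minus strand of chromosome X (GRCm38.p6). The mature miR-322-5p maps to chrX:53054306-53054327, miR-322-3p to chrX:53054269-53054289, miR-351-5p to chrX:53053315-53053338 and miR-450b-5p to chrX:53048044-53048065. The mature miR-450a-5p has the same sequence in 2 hairpins, Mir450-1 (chrX:53048206-53048227) and Mir450-2 (chrX:53048339-53048360), and its counts could not be divided between them. The cluster holds 7 hairpins within 6353 bp, read in the order Mir322, Mir503, Mir351, Mir542, Mir450-2, Mir450-1 and Mir450b. RefSeq places the first 3 of these within the span of the long non-coding RNA C430049B03Rik, and a gap of 3767 bp separates Mir351 from Mir542. GENCODE M21 ends C430049B03Rik upstream of Mir322 and annotates a further lincRNA, Gm28730, within that gap.

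Library totals ran from 1243397 to 2135500 counts for whole tissue and from 89039 to 362866 for epithelial cells, so that 1 count corresponded to at most 0.804 CPM (the count relative to the total of its library, on the usual scale) in whole tissue and to as much as 11.2 in epithelial cells. Markers of other cell types were present in the epithelial libraries. The 4 smooth muscle miRNAs (the strands of miR-143 and miR-145a) summed to between 143519 and 334444 CPM there, and the 6 epithelial miRNAs (the miR-200 family and miR-205) to between 25974 and 40840. No defining marker of either list was at 0 in every library of any group, and the preparation is called epithelial cells here by its label.

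The products of the cluster differed widely in abundance, which is compared by counts because the mature miRNAs have similar lengths of 21 to 24 bases. How the authors counted reads that match several miRNAs is not given in the sources used here. miR-322-5p was the most abundant, with 6820 counts over the 8 whole tissue libraries and 787 over the 6 epithelial libraries, and it made up between 64.8 and 77.1% of the counts of the 5 products in whole tissue libraries and between 65.7 and 72.4% in epithelial libraries. miR-351-5p followed with 1761 and 192 counts, miR-450a-5p with 733 and 125, miR-322-3p with 431 and 39, and miR-450b-5p with 55 and 6. The 5 products together never exceeded 0.135% of a library.

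Of 8 further mature products looked for, 6 were listed in each table and 0 reached a mean count above 10 in any region. miR-542-3p was the highest of them, with between 2 and 10 counts per whole tissue library and between 0 and 5 per epithelial library. miR-503-5p, whose hairpin lies between those of miR-322 and miR-351, had at most 2 counts in any library, and 4 in all over whole tissue. A hairpin between the most abundant products of the cluster was therefore close to the limit of detection in both preparations.

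**Figure D1:**
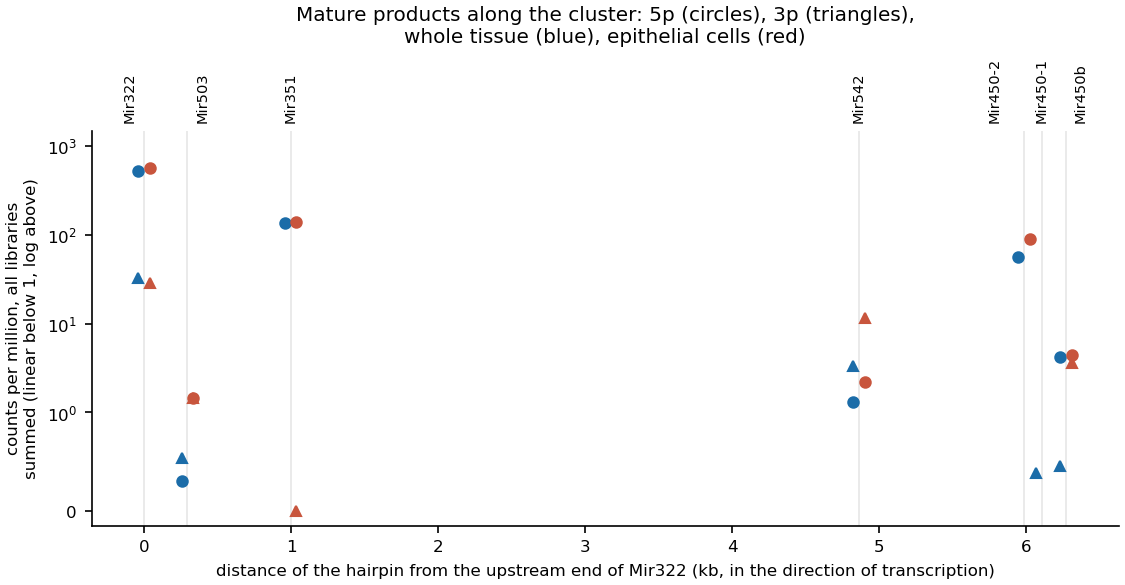
Level, in CPM, of each listed mature product of the cluster, all libraries of a preparation summed (vertical axis, linear below 1 and logarithmic above), against the distance of its hairpin from the upstream end of Mir322 (kb). miR-322-5p stood at 523 in whole tissue and 576 in epithelial cells, miR-351-5p at 135 and 141, while the miR-503 strands between them were at or below 1.46. The miR-450a-5p counts are drawn at Mir450-2 only, although both hairpins give this sequence.

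In whole tissue the cauda libraries of each product lay below its caput libraries, which restates what the products were chosen for. Nothing is read from this, and the share of all miRNAs with such a separation was not computed. For miR-450b-5p the identification limit, passed through the caput only, favoured this order. By another measure, the call criterion given below, 53.2% of the 355 miRNAs tested were called changed in either direction, 25.4% as lower and 27.9% as higher. Levels are given as CPM, scaled between libraries by TMM factors. miR-322-5p stood at 775, 846 and 622 in the caput libraries, at 462 and 440 in the corpus and at 376, 393 and 352 in the cauda. These groups did not overlap and descended in order along the duct, from 748 ± 114 (SD, n = 3) to 451 ± 15.3 (n = 2) and 374 ± 20.2 (n = 3). The miRNA thus ranked 73rd by mean level in the caput and 91st in the cauda.

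miR-351-5p, with the seed of the miR-125 family, showed the same order with a steeper descent. It was at 214, 292 and 171 CPM in the caput, at 144 and 122 in the corpus and at 49.4, 68.3 and 62.5 in the cauda, again without overlap between regions. Its means were 226 ± 61.5 (SD, n = 3), 133 ± 15.7 (n = 2) and 60.1 ± 9.67 (n = 3). The step from corpus to cauda was 2.21-fold in the means for miR-351-5p and 1.21-fold for miR-322-5p.

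miR-450a-5p, from the far end of the cluster, was at 97.8, 94.5 and 74.6 CPM in the caput, at 55.3 and 41.3 in the corpus and at 37.1, 35.1 and 24.8 in the cauda. Its regions likewise did not overlap. miR-450b-5p was near the detection limit, with 11, 15 and 16 counts for the caput libraries, 4 and 1 for those of the corpus, and 5, 2 and 1 for those of the cauda. Its caput libraries lay above all others, and its corpus and cauda libraries overlapped.

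miR-322-3p, the other strand of the miR-322 hairpin, kept a different order. It was at 36.7, 44.1 and 39.5 CPM in the caput, at 48.6 and 33.4 in the corpus and at 22.7, 25.9 and 21.2 in the cauda. Caput and corpus overlapped, and only the cauda libraries lay below the rest.

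**Figure D2:**
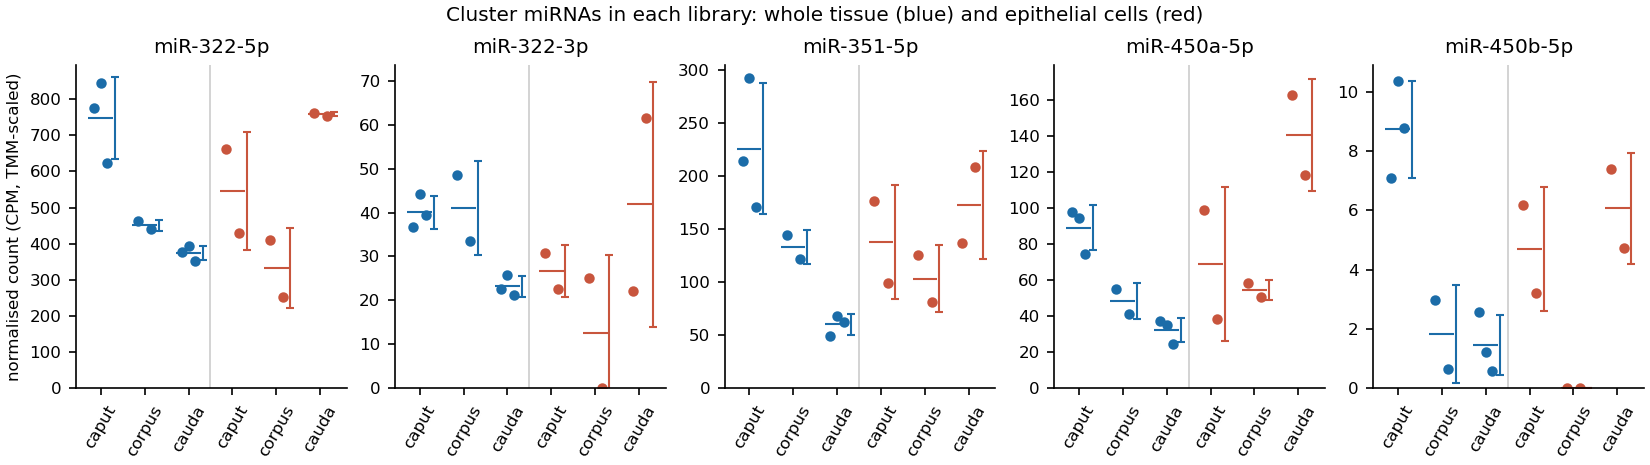
Normalised CPM of the 5 products in each library (points) by region, with the group mean (horizontal line) and SD (error bar; parts below 0 are not drawn), whole tissue in blue and epithelial cells in red. In whole tissue the cauda points lie below the caput points in all 5 panels, whereas in epithelial cells the cauda points of miR-322-5p (762 and 754) and miR-450a-5p (163 and 119) lie above the caput points.

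In the limma-voom fit of whole tissue, the change from caput to cauda on the log2 scale was -0.99 ± 0.12 (SE) for miR-322-5p (1.98-fold lower), -0.78 ± 0.19 for miR-322-3p, -1.88 ± 0.21 for miR-351-5p (3.68-fold lower), -1.45 ± 0.20 for miR-450a-5p (2.74-fold lower) and -2.48 ± 0.54 for miR-450b-5p. These values are a description without a test, since the products were chosen with this comparison known. The criterion of the study for a call was at least 2-fold change with a false discovery rate (FDR) below 0.05. By it 3 of 5 products were past the limits on the lower side (miR-351-5p, miR-450a-5p and miR-450b-5p), where 25.4% of all 355 miRNAs were, and nothing is read from this count, since the choice used the same change. miR-450b-5p passed the identification limit through its caput level alone, so its direction was set by that filter. The median of the products, given as a description, was -1.45, beside -0.04 over all 355. With library totals in place of TMM the median of all miRNAs moved to 0.30, and the products remained negative, with miR-322-5p at -0.64 and miR-322-3p at -0.44.

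In epithelial cells the order of the regions was another. The caput libraries held miR-322-5p at 661 and 431 CPM, the corpus libraries at 410 and 253, and the cauda libraries at 762 and 754. The cauda was highest and the corpus lowest, without overlap, although caput replicate 2 and corpus replicate 1 were close to each other. The means were 546 ± 163, 332 ± 111 and 758 ± 5.42 (SD, n = 2 each), in the order caput, corpus and cauda.

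miR-450a-5p had the widest gap between the caput and cauda means, 2.05-fold. It was at 98.9 and 38.6 CPM in the epithelial caput, at 58.6 and 50.7 in the corpus and at 163 and 119 in the cauda, where both libraries lay above all others. The underlying counts were small, with 32 and 12 for the caput libraries, 7 and 5 for those of the corpus, and 44 and 25 for those of the cauda.

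miR-351-5p was at 176 and 99.6 CPM in the epithelial caput, at 125 and 81.1 in the corpus and at 137 and 209 in the cauda. The caput libraries overlapped with those of both other regions, while both cauda libraries lay above both corpus libraries. The remaining products fell below the identification limit. The caput libraries had 10 and 7 counts of miR-322-3p, those of the corpus 3 and 0, and those of the cauda 6 and 13, and the counts of miR-450b-5p in the same order were 2 and 1, 0 and 0, and 2 and 1. A library with 0 counts allows up to 3 counts, so neither miRNA could be ranked between regions at this depth.

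In the fit of epithelial cells the change from caput to cauda was 0.50 ± 0.26 (SE) on the log2 scale for miR-322-5p, 0.33 ± 0.38 for miR-351-5p and 1.16 ± 0.45 for miR-450a-5p. None of the 3 products tested was past the call limits with limma-voom, edgeR's quasi-likelihood test or DESeq2's Wald test (0 of 3 each), where limma-voom called 26.4% of all 216 miRNAs in either direction. Nothing is read from this count, neither a change nor its absence, and no p is given, because the choice of the products used this comparison. Caput replicate 2 weighed on the 3 changes. Without it the changes were 0.23, -0.04 and 0.54, and without caput replicate 1 they were 0.88, 0.81 and 1.89.

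**Figure D3:**
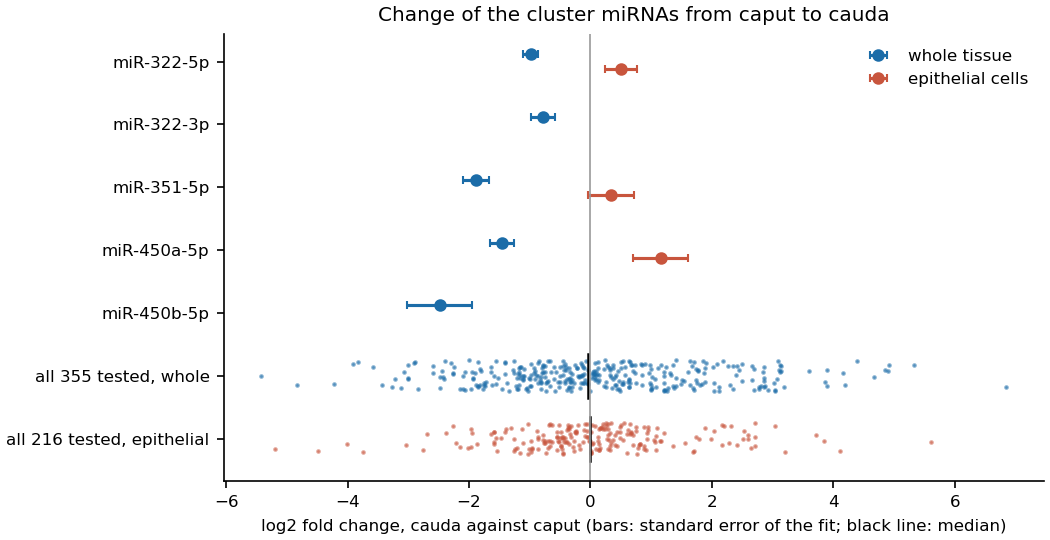
Log2 fold change from caput to cauda in whole tissue (blue) and epithelial cells (red), with the standard error of the limma-voom fit, for the products that passed the identification limit, above the changes of all miRNAs tested (small points, black line at the median). All 5 products lay below 0 in whole tissue (-0.78 to -2.48) and the 3 tested in epithelial cells lay above 0 (0.33 to 1.16).

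The change in epithelial cells minus that in whole tissue, from 1 fit of all 14 libraries over the 194 miRNAs identified in both tables, was 1.53 ± 0.23 (SE) on the log2 scale for miR-322-5p, 2.24 ± 0.44 for miR-351-5p and 2.65 ± 0.44 for miR-450a-5p. These differences too were part of the choice and carry no test. All 3 were past the call limits, where 20.1% of the 194 miRNAs were in either direction, 15.5% as higher and 4.64% as lower, and nothing is read from this count, since the choice used the same change. The scaling bears on this background, since the median difference of all 194 miRNAs was 0.38 with TMM and 0.12 with DESeq2 size factors, and the calls split into 30 higher and 9 lower with TMM but into 13 and 12 with DESeq2 size factors. The difference of the changes fitted within each table was 1.49, 2.21 and 2.61 for the 3 products. Without epithelial caput replicate 2 the differences were 0.90, 1.51 and 1.67 and 1 of 3 products (miR-450a-5p) was called, while the count over all miRNAs fell to 21.

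Cell type markers moved along the duct in the same libraries. In whole tissue the 6 epithelial markers summed to between 21878 and 23679 CPM in the caput, between 17393 and 18220 in the corpus and between 8185 and 9902 in the cauda, and the 4 smooth muscle markers to between 53219 and 65965, between 76243 and 80341, and between 223148 and 249053. In epithelial cells the epithelial list ranged from 25974 to 28315 in the caput, from 39915 to 40234 in the corpus and from 33407 to 40840 in the cauda. Its members did not share 1 order there. miR-205-5p averaged 10943, 21820 and 21209 CPM in caput, corpus and cauda and miR-200b-3p 3205, 4032 and 5991, whereas miR-200c-3p averaged 4116, 4729 and 2320 and miR-429-3p 4002, 2577 and 2405. The smooth muscle list there ranged from 143519 to 195193 in the caput, from 208541 to 218817 in the corpus and from 157092 to 334444 in the cauda. In bulk tissue, fewer cells of a type and less RNA per cell cannot be told apart.

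Set against the epithelial list, a ratio chosen after the values were seen, the 5 products summed to 5.05, 5.44 and 4.19 counts per 100 counts of epithelial markers in the whole tissue caput, to 3.91 and 3.67 in the corpus and to 4.93, 6.39 and 5.13 in the cauda. Caput and cauda overlapped on this scale and the corpus lay below both. In epithelial cells the ratio was 3.44 and 2.29 for the caput, 1.55 and 0.958 for the corpus, and 3.27 and 2.81 for the cauda. The corpus was again lowest, and caput and cauda overlapped. That overlap rested on miR-205-5p. Without it, against the 5 members of the miR-200 family, the epithelial caput libraries were at 5.66 and 3.91, those of the corpus at 3.36 and 2.13, and those of the cauda at 8.19 and 6.20, with no overlap between caput and cauda. In whole tissue this ratio was 5.63, 5.92 and 4.57 for the caput, 4.40 and 4.11 for the corpus, and 5.58, 7.22 and 5.93 for the cauda, with overlap of caput and cauda. What part the mixture of cell types had in the levels of the cluster was not tested.

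The 2-member endothelial list (the strands of miR-126a) had the same order of regions as miR-322-5p in epithelial cells, at 25450 to 35505 CPM in the caput, 12999 to 14766 in the corpus and 46308 to 56272 in the cauda. In whole tissue it ranged from 14775 to 18247 in the caput, from 13943 to 14742 in the corpus and from 16395 to 17318 in the cauda, where miR-322-5p had descended. A highest epithelial cauda was not particular to the endothelial list. The red blood cell and leukocyte lists were also highest there, with overlap of caput and corpus. The 4-member red blood cell list ranged from 382 to 470 CPM in the epithelial caput, from 218 to 436 in the corpus and from 1579 to 2947 in the cauda, and from 87.3 to 97.8, from 238 to 276 and from 847 to 1324 in the same regions of whole tissue. The 5-member leukocyte list ranged from 469 to 859 in the epithelial caput, from 507 to 728 in the corpus and from 1371 to 1575 in the cauda, and from 966 to 1160, from 1160 to 1449 and from 1950 to 1993 in the same regions of whole tissue. The 6-member germ cell list ranged from 4055 to 5255 CPM in the whole tissue caput, from 4402 to 5233 in its corpus and from 9243 to 11915 in its cauda, and from 3785 to 4252, from 2210 to 3472 and from 2348 to 5667 in the same regions of epithelial cells. Most of the epithelial sum was miR-34c-5p (3666, 1694 and 2956 CPM in the means), while miR-881-3p averaged 30.0, 336 and 323, and miR-741-3p and miR-871-3p were likewise lowest in the caput. The 4-member fibroblast list ranged from 1421 to 1686 in the whole tissue caput, from 2595 to 2729 in its corpus and from 2448 to 2863 in its cauda, and from 1758 to 1909, from 2418 to 2454 and from 2471 to 3672 in the same regions of epithelial cells. The epithelial order was that of miR-199a-3p, which averaged 1233 CPM in the caput and 2632 in the cauda, while the means of the other 3 members were lower in the cauda than in the caput. The striated muscle list ranged from 33.4 to 35.2, from 62.8 to 177 and from 146 to 1072 in whole tissue, and from 360 to 374, from 578 to 619 and from 313 to 470 in epithelial cells. The part of vessels, blood and these other cells in the values of the cluster was not tested.

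Whether the corpus stood apart from the ends of the duct was tested as the corpus against the mean of caput and cauda, a contrast that was not used to choose the products, although it shares its libraries with the one that was. In whole tissue 0 of 5 products were called by limma-voom, by edgeR's quasi-likelihood test or by DESeq2's Wald test, where limma-voom called 10.0% of all 360 miRNAs, and 0 of 5 had an unadjusted p below 0.05 in limma-voom. For miR-450b-5p, identified through the caput alone, the filter favoured a low corpus, and its -1.09 (95% interval -2.55 to 0.37) is given without a reading. miR-322-5p was at -0.22 (95% interval -0.50 to 0.06, limma adjusted p = 0.20) and miR-351-5p at 0.22 (-0.25 to 0.68, limma adjusted p = 0.47). miR-322-3p was at 0.39 (-0.02 to 0.81, limma adjusted p = 0.13), with adjusted p from 0.036 to 0.75 over the alternatives and a change under 2-fold in each.

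In epithelial cells this contrast was -0.95 on the log2 scale for miR-322-5p (95% interval -1.68 to -0.22, unadjusted p = 0.018 and adjusted p = 0.10, limma-voom). miR-351-5p was at -0.49 (-1.52 to 0.53, limma adjusted p = 0.54) and miR-450a-5p at -0.69 (-1.94 to 0.56, limma adjusted p = 0.48). miR-450a-5p was identified here through the caput and the cauda, with a mean of 6 counts in the corpus, so the filter favoured a negative value. With each of the 3 tools 0 of 3 products were called, where 3.70% of 216 miRNAs were called by limma-voom, and 1 of 3 had an unadjusted p below 0.05. For miR-322-5p DESeq2's Wald test gave -0.92, under 2-fold, with an adjusted p of 0.024, and adjusted p ranged up to 0.32 over the alternatives. With the test widened to every miRNA that had 1 count or more, miR-322-5p passed at -1.07 with a limma adjusted p of 0.029.

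The difference of this corpus contrast between the preparations was -0.68 for miR-322-5p (95% interval -1.26 to -0.11, unadjusted p = 0.023, adjusted p = 0.18, limma-voom), -0.68 for miR-351-5p (limma adjusted p = 0.55) and -0.50 for miR-450a-5p (limma adjusted p = 0.71). Of the 3 products, 0 were called by any of the 3 tools, where 1.03% of 194 miRNAs were called by limma-voom and 1 of the 3 products had an unadjusted p below 0.05. The filter on the epithelial corpus counts of miR-450a-5p bears on its value here too.

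Averaged over the 3 regions, none of the 3 products identified in both tables differed by 2-fold between the preparations. The level in epithelial cells minus that in whole tissue was -0.12 on the log2 scale for miR-322-5p (95% interval -0.36 to 0.12, limma adjusted p = 0.34) and 0.00 for miR-351-5p (-0.43 to 0.43, limma adjusted p = 0.99). Over the alternatives the value of miR-322-5p ranged from -0.31 to 0.022, so that it depended on single libraries and on the scaling. miR-450a-5p was higher by 0.50 (0.08 to 0.93, limma adjusted p = 0.031), a 1.42-fold difference that did not reach the 2-fold criterion and whose adjusted p ranged from 0.0059 to 0.20 over the alternatives. With each of the 3 tools 0 of 3 products were called, where 35.1% of 194 miRNAs were called by limma-voom, and 1 of 3 had an unadjusted p below 0.05. Preparation, count table and depth differed together here and cannot be told apart.

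Ratios within a library need no scaling between libraries. miR-351-5p per 100 counts of miR-322-5p was at 27.6, 34.6 and 27.5 in the whole tissue caput, at 31.2 and 27.7 in the corpus and at 13.2, 17.4 and 17.7 in the cauda. Every cauda library lay below every other whole tissue library. Between caput and cauda this ratio holds the difference of changes that were used in the choice, so it is a description with no test. In epithelial cells the ratio was 26.6 and 23.1 for the caput, 30.6 and 32 for the corpus, and 18.0 and 27.7 for the cauda, and the caput and cauda libraries overlapped.

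Between the preparations the log2 ratio of miR-351-5p to miR-322-5p averaged -2.05 in whole tissue and -1.93 in epithelial cells, a difference of 0.13 (two-sided exact permutation test within regions, p = 0.4, n = 8 and 6, 600 arrangements, the smallest possible p being 0.0017). Without each library in turn the difference ranged from 0.022 to 0.23. The difference did not pass the test, which does not show that the proportions were equal.

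miR-450a-5p per 100 counts of miR-322-5p was 11.9 ± 0.72 (SD, n = 3) in the whole tissue caput, 10.7 ± 1.83 (n = 2) in the corpus and 8.61 ± 1.45 (n = 3) in the cauda. In epithelial cells it was 12.0 ± 4.24, 17.1 ± 4.04 and 18.5 ± 3.99 (n = 2 each). The whole tissue values descended with overlap between neighbouring regions, and in epithelial cells both cauda libraries (21.4 and 15.7) lay above both caput libraries (14.95 and 8.96), while the corpus libraries (14.3 and 20) overlapped with both ends.

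The passenger strand miR-322-3p per 100 counts of miR-322-5p was at 4.73, 5.22 and 6.35 in the whole tissue caput, at 10.5 and 7.60 in the corpus and at 6.03, 6.58 and 6.02 in the cauda. Both corpus libraries lay above all other whole tissue libraries. The epithelial values rested on 13 or fewer counts of miR-322-3p per library and ranged from 0 to 8.18.

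**Figure D4:**
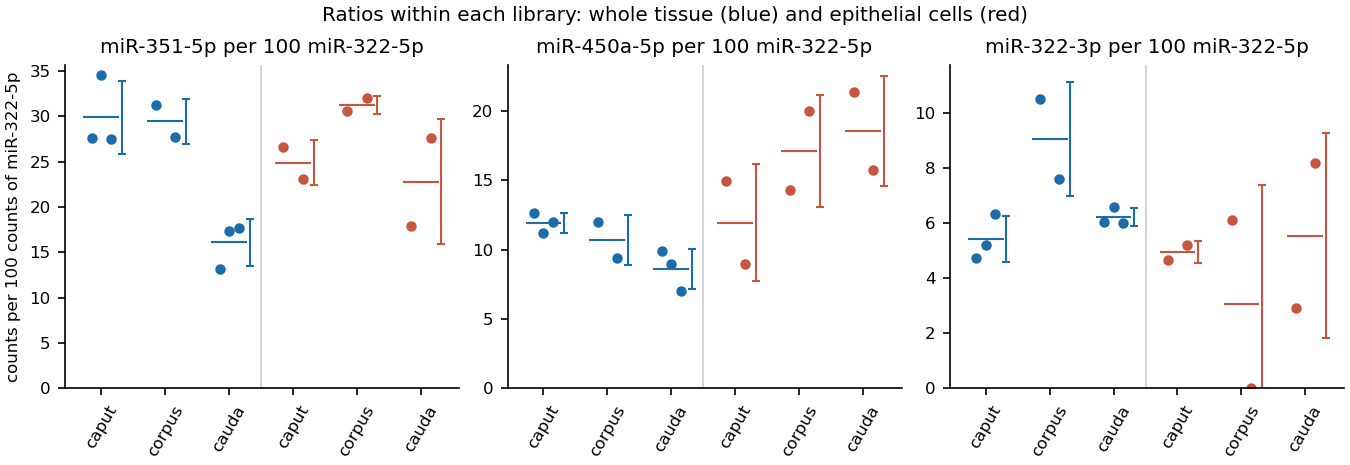
Counts of miR-351-5p, miR-450a-5p and miR-322-3p per 100 counts of miR-322-5p in each library (points), with the group mean (line) and SD (error bar; parts below 0 are not drawn), whole tissue in blue and epithelial cells in red. The whole tissue cauda points of miR-351-5p lie between 13.2 and 17.7, below the lowest caput point of 27.5, and the corpus points of miR-322-3p lie above those of the other whole tissue regions.

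The seed of miR-322-5p is carried by 10 names in RefSeq, itself among them. Of the 5 others that were examined (miR-15a-5p, miR-15b-5p, miR-16-5p, miR-195a-5p and miR-497-5p), 0 were called between caput and cauda in whole tissue and 0 in epithelial cells by limma-voom, where 53.2% of 355 and 26.4% of 216 miRNAs were called, with log2 changes between -0.81 and 0.46 in whole tissue and between -0.73 and 0.75 in epithelial cells. miR-16-5p, the most abundant, was higher in the cauda by 0.46 ± 0.10 (SE) in whole tissue (limma adjusted p = 0.0018) and by 0.75 ± 0.16 in epithelial cells (limma adjusted p = 0.012), each under 2-fold. The values of miR-497-5p were negative, at -0.81 ± 0.11 in whole tissue (limma adjusted p = 7.1e-05) and -0.73 ± 0.28 in epithelial cells (limma adjusted p = 0.074), and miR-195a-5p was at 0.02 ± 0.09 (limma adjusted p = 0.81) and -0.70 ± 0.21 (limma adjusted p = 0.034). The summed level of the 5 ranged from 11778 to 14498 CPM in the whole tissue caput and from 16798 to 18101 in the cauda, against 622 to 846 and 352 to 393 for miR-322-5p. In epithelial libraries the 5 summed to between 8842 and 14445, against at most 762 for miR-322-5p, which was thus a minor carrier of this seed in every library.

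The seed of miR-351-5p is carried by 5 names in RefSeq, itself among them, of which miR-125a-5p and miR-125b-5p were examined. miR-125a-5p was lower in the whole tissue cauda by 1.40 on the log2 scale (-1.40 ± 0.12, SE, limma adjusted p = 2.2e-06) and was at -0.36 ± 0.25 in epithelial cells (limma adjusted p = 0.29). Its difference of change between preparations was 1.08 ± 0.24 (limma adjusted p = 0.0039), beside 2.24 for miR-351-5p. miR-125b-5p was not called in either preparation, at 0.06 ± 0.09 (limma adjusted p = 0.53) and 0.20 ± 0.19 (limma adjusted p = 0.40).

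The profiles most like that of miR-322-5p were found by the root mean square difference of log2 CPM over the 14 libraries, each profile centred within its preparation, among 193 other miRNAs identified in both tables. The nearest outside the cluster were miR-423-3p (0.27), let-7d-3p (0.29), miR-192-5p (0.34), miR-148b-5p (0.35) and miR-15a-5p (0.35), where the median over all 193 was 0.65. Of the cluster, miR-450a-5p ranked 3rd at 0.32 and miR-351-5p 12th at 0.39, ranks from which nothing is read, since the profiles hold the changes used in the choice. miR-423-3p was at 426 ± 82.1 CPM (SD, n = 3) in the whole tissue caput and 203 ± 30.7 in the cauda, and at 266 ± 30.5 and 297 ± 43.1 (n = 2 each) in the same regions of epithelial cells. let-7d-3p was at 388 ± 18.8 and 180 ± 11.8 in whole tissue and at 473 ± 56.0 and 487 ± 109 in epithelial cells.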

How the data were processed

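Both tables deposited by the authors hold expected counts of reads per mature miRNA without normalization, and the one for epithelial cells had 0.001 added to each value, which was removed. The authors screened and trimmed the reads and aligned them to mm10 and to miRBase, and the submitters' processing notes name CASAVA 1.8.2, Bowtie 1.1.1 and limma. Libraries were grouped by region and preparation from the GEO labels. Counts were rounded (changing a library total by at most 0.010%), scaled by TMM (edgeR 4.0.16) over the identified miRNAs with full library totals, and fitted by limma-voom under R 4.3.3 and limma 3.58.1, separately for each preparation and once for both over shared names. Adjusted p-values are Benjamini-Hochberg values over all miRNAs tested. Low counts in the shallow epithelial libraries limit the precision there, and errors are SDs between libraries or standard errors of the fit. No library pair of a group agreed within sampling noise (chi-square per degree of freedom 9.14 or more). Alternatives were edgeR's quasi-likelihood test, DESeq2's Wald test and size factors (DESeq2 1.42.0), library totals, other count filters, a replicate block and leaving out each library.

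The replicate numbers in the sample titles were checked as pairs by correlating deviations from the region means. In whole tissue, same-numbered libraries correlated at 0.12 to 0.23 between caput and cauda and at 0.15 and 0.21 between cauda and corpus, but at 0.015 and 0.023 between caput and corpus, and in epithelial cells at -0.13 between caput and cauda, 0.20 between caput and corpus and -0.088 between cauda and corpus. By a limit of 0.1 the numbers pair the whole tissue cauda libraries with those of caput and corpus, and the epithelial caput libraries with those of the corpus. The other pairs of regions did not pass. In groups with only a pair of libraries, centring makes same-numbered and other correlations equal and opposite, so the check says little there. The block is given as an alternative.

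The ratio test added 0.5 to each count and permuted the preparation labels within regions. Profiles were compared with a prior count of 0.5. Named miRNAs are the 5 products, the other products of the cluster, the miRNAs listed for the seeds of miR-322-5p and miR-351-5p, and the 5 nearest profiles to the most abundant product. The marker miRNAs are lists of known cell type markers. The products, lists and tests were chosen with earlier results of these data known.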

Additional observations from a re-analysis of the deposited data

Results flagged for a closer look

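The libraries of miR-322-5p and miR-450a-5p were ordered oppositely between caput and cauda in the preparations, since every whole tissue cauda library lay below every caput library and every epithelial cauda library lay above every caput library. The change in epithelial cells minus that in whole tissue was 1.53 on the log2 scale for miR-322-5p and 2.65 for miR-450a-5p, and 0.90 and 1.67 without epithelial caput replicate 2. In epithelial cells alone the change of miR-322-5p was 0.50, given as a description. Neither product was past the call limits there in the main fit, and miR-450a-5p was with library totals. Nothing is read from these outcomes, since the choice used the same change. The difference between the preparations was not tested, because the products were chosen with it in view.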

How the results depend on the processing

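All 5 products stayed lower in the whole tissue cauda under every alternative that tested them, with miR-322-5p between -0.64 and -1.06 on the log2 scale, and were called as in the text except miR-322-5p, called without caput replicate 3 (-1.06) or cauda replicate 2. In epithelial cells library totals called miR-450a-5p, as did leaving out caput replicate 1. Counts of calls over all miRNAs moved as follows, and the cause was not tested beyond the number of miRNAs or libraries. Requiring 10 counts in every library gave 115 calls (main 189) for caput to cauda in whole tissue, 28 (57) in epithelial cells, 20 (36) for the corpus contrast in whole tissue, 15 (39) and 0 (2) for the differences between preparations of these contrasts, and 32 (68) for epithelial cells against whole tissue. Testing all miRNAs with at least 1 count gave 55 and 38 (36 and 8) for the corpus contrast in whole tissue and epithelial cells, 0 (2) for its difference and 318 (68) between preparations. The Wald test gave 23 and size factors 17 (8) for the epithelial corpus contrast, both gave 25 (39) for the difference in caput to cauda change, and edgeR gave 1 (2) for the corpus difference.

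Without each library in turn these counts ranged from 175 to 195 and from 29 to 58 for caput to cauda in whole tissue and epithelial cells, from 24 to 37 and from 3 to 22 for the corpus contrast, from 21 to 42 and from 0 to 3 for the differences, and from 63 to 69 between preparations. Leaving out epithelial caput replicate 2 gave the 29, the 3 and the 21, and epithelial cauda replicate 2 the 22. Near 0 some signs turned. The corpus contrast of miR-450a-5p in whole tissue (-0.16) was 0.0057 with library totals and -0.37 to 0.088 without each library. Between preparations miR-322-5p (-0.12) was 0.022 with library totals, and miR-351-5p (0.00) was -0.017 with edgeR, -0.014 with all miRNAs and -0.18 to 0.12 without each library.

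A replicate block gave 187 and 51 calls for caput to cauda, 36 and 6 for the corpus contrast, 41 and 2 for the differences, 63 between preparations, and a ratio difference of 0.13, and changed no call of a product. Crossing the numbers of the epithelial cauda libraries, tried only after seeing the data, gave 26 calls for the epithelial corpus contrast. The epithelial corpus libraries held only 25 to 49 counts of miR-322-5p, and fewer of the other products, which limits the precision of the corpus values.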
